A study of Mus musculus with 8 samples.

Results

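The 10 genes Cdx2, Isx, Cdh17, Vil1, Muc13, Lgals4, Gpa33, Krt20, Muc2 and Fabp2, all known from the epithelium of the intestine, were followed through 8 RNA-seq libraries of mouse liver tumour organoids. They were selected by gene symbol from the 45777 genes of the count files, and all 10 had counts above 0 in each of the 8 libraries. The list was drawn up with the levels in the untreated organoids and the results of the comparisons already known, so those levels are a description and no value below is independent support for the choice. Organoids are 3-dimensional cultures of epithelial cells. All libraries come from cultures labelled as tumour organoids of hepatocellular carcinoma on a background of metabolic fatty liver disease, with genotype WT. The sources used here state no strain, age, drug dose or duration. The resistant group holds SNU-6624-TO-LEN and SNU-6625-TO-LEN, cultures labelled lenvatinib-resistant whose treatment label is control. The lenvatinib group holds SNU-6624-TO and SNU-6625-TO treated with lenvatinib, a kinase inhibitor drug used against liver cancer that blocks growth factor receptors such as those of VEGF and FGF. The parental group holds untreated SNU-6621-TO, SNU-6622-TO, SNU-6624-TO and SNU-6625-TO. SNU-6624 and SNU-6625 have 1 library in each group, SNU-6621 and SNU-6622 a parental library alone, and the labels used here do not say which animal each line came from.

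The intestinal lining is renewed by stem cells that give rise to absorptive cells, mucus-secreting goblet cells and smaller secretory lineages. The homeobox factor CDX2 sets intestinal identity in this epithelium, and HNF4 factors, which also act in liver, take part in the expression of many of its absorptive genes. Adult hepatocytes and bile duct cells of the healthy liver are not known for CDX2, while intestinal genes are known from some tumours outside the gut.

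The genome sequence around the transcription starts is shown for 5 of the genes, chosen because they stand for the different patterns described below: the factor gene Cdx2, Vil1 and Krt20, which fell after lenvatinib, Gpa33, which did not pass the test, and Muc2, whose values went the other way. Each window runs from 250 bases before to 50 bases after the RefSeq start (GRCm38.p6, the assembly behind mm10), is written 5′ to 3′ on the strand of the gene, and has matches to 3 sets of motifs in capitals. They are given in the order Cdx2 (chr5:147307200-147307499, minus strand), Vil1 (chr1:74409134-74409433, plus strand), Krt20 (chr11:99438104-99438403, minus strand), Gpa33 (chr1:166129971-166130270, plus strand) and Muc2 (chr7:141690090-141690389, plus strand).
Cdx2: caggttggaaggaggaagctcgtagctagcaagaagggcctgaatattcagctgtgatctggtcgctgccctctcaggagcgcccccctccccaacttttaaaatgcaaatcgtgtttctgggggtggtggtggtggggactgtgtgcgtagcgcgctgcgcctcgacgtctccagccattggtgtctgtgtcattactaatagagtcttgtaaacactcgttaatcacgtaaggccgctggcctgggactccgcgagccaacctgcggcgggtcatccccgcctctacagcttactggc
Vil1: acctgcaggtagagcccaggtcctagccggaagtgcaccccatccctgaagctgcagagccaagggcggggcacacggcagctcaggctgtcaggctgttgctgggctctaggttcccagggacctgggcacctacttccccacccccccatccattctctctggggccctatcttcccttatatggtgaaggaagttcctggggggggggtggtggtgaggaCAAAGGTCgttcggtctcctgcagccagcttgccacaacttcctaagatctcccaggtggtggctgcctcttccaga
Krt20: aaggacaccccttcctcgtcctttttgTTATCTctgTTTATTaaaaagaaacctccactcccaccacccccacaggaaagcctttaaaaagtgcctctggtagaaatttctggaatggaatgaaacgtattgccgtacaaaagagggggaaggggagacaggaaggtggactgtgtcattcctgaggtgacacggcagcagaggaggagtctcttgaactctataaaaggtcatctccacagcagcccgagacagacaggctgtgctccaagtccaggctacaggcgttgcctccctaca
Gpa33: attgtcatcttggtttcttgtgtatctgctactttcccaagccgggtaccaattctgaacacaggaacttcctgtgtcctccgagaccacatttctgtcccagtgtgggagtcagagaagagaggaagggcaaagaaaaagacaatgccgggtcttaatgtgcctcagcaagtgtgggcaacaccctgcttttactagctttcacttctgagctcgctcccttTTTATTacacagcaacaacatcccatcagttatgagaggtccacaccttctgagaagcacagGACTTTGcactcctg
Muc2: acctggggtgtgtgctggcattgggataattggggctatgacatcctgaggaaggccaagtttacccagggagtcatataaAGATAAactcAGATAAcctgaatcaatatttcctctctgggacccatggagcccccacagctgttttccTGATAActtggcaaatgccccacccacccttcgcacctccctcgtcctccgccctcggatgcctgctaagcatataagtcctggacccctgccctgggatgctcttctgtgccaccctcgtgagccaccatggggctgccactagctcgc

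The motifs were searched on both strands, and no matches in these windows overlapped each other. The core of CDX sites, TTTATT or TTTATG, was present in windows of 4 of the 9 genes with an entry, which are all but Cdh17: Fabp2, Gpa33, Krt20 and Muc13, the last having more than one window, against 27.6% of all 32851 windows of the same length. In Krt20 it began 214 bases before the start, and in Gpa33 27 bases before it. The letters CAAAGTC or CAAAGGTC, searched as HNF4 motifs, were found in Gpa33, Muc13 and Vil1, against 5.52% of all windows. In Vil1 they began 27 bases before the start. The GATA core, AGATAA or TGATAA, was found in Krt20, Muc13 and Muc2, against 18.6% of windows, with 3 matches in Muc2. The window of Cdx2 held none of the letters searched. A match describes these letters and shows no binding.

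Total counts were between 49011663 and 61032387 per library. A count of 3, which served as the floor where nothing was counted, corresponds to 0.0492 to 0.0612 CPM (read counts scaled to a common library total). This floor covers counting error alone, because the reads carry no molecular identifiers. Libraries of the 3 groups differ in more than these genes: genes annotated as ribosomal RNA held 0.0411% and 0.0416% of counts in the resistant, 0.0448% and 0.0533% in the lenvatinib and 0.0942% to 0.11% in the parental libraries. Resistant SNU-6625 stood apart, with 17 counts of the proliferation gene Mki67, against 1970 in resistant SNU-6624, 84 and 105 in the lenvatinib and 2897 to 12767 in the parental libraries. Parental SNU-6621 also stood apart, its rank correlation (Spearman, across genes) being 0.907 to 0.919 with the other parental libraries and theirs 0.969 to 0.977 among themselves. The part of these differences in the results below was not tested.

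The first question is how strongly untreated organoids express intestinal genes. In every parental line 8 of the 10 genes reached 10 CPM or more, and these are levels that entered the choice of the genes. The regulators come first. Cdx2 (gene 12591, chromosome 5, 147300900 to 147307249, minus strand) had 139 CPM in SNU-6621, 142 in SNU-6622, 98.0 in SNU-6624 and 134 CPM in SNU-6625. Isx (gene 71597, chromosome 8, 74873174 to 74893506), a homeobox gene of the gut that represses vitamin A uptake and conversion genes, had 125, 115, 56.8 and 89.4 CPM in the same order. Cdx2 thus had a narrow range, its highest line being 1.45 times its lowest, against 2.20 times for Isx. The closely related factor gene Cdx1 had 0 counts in all 8 libraries, against the floor of 3 counts per library.

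Genes of the cell surface and the brush border, the microvillus-covered face of absorptive cells, varied more between lines. Cdh17 (gene 12557, chromosome 4, 11758157 to 11817905), which encodes liver-intestine cadherin, an adhesion protein, had 318, 928, 526 and 776 CPM in the 4 parental lines in the same order. Muc13 (gene 17063, chromosome 16, 33794037 to 33819929), a mucin anchored in the membrane, had 251, 1819, 447 and 867 CPM. SNU-6622 was the highest line and SNU-6621 the lowest in both genes, and the highest Muc13 value was 7.24 times the lowest.

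Vil1 (gene 22349, chromosome 1, 74409384 to 74435560), whose product villin bundles actin in microvilli, had 83.6, 268, 211 and 358 CPM in the same order of lines. Gpa33 (gene 59290, chromosome 1, 166130221 to 166166510), a surface glycoprotein of intestinal epithelium, had 74.8, 332, 156 and 252 CPM. SNU-6621 was again the lowest line for both genes. Lgals4 (gene 16855, chromosome 7, 28833122 to 28841710), a galectin that binds sugars on gut epithelium, had 726, 1548, 901 and 1657 CPM. Krt20 (gene 66809, chromosome 11, 99428385 to 99438153), a keratin of differentiated gut cells, had 758, 471, 183 and 306 CPM. SNU-6621 was the lowest line for Lgals4 and the highest for Krt20, whose lowest was SNU-6624.

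The other 2 genes, Muc2 and Fabp2, stayed under 10 CPM in every parental line. Muc2 (gene 17831, chromosome 7, 141690340 to 141754691), the main secreted mucin of goblet cells, had 238, 128, 92 and 79 counts in the parental lines, again in that order, which is 4.55, 2.19, 1.52 and 1.61 CPM. Fabp2 (gene 14079, chromosome 3, 122895072 to 122899506), the intestinal fatty acid binding protein of absorptive cells, had 13, 185, 134 and 141 counts, which is 0.249, 3.16, 2.22 and 2.88 CPM. Of the 10 genes, SNU-6621 was the lowest parental line in 6 and the highest in 3 (Isx, Krt20 and Muc2), while SNU-6622 was highest in 5 and lowest in 0. With 1 library per line, differences between parental lines were not tested.

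Levels of different genes can be compared per transcript length, which was found for 9 of the 10 genes, Muc2 being without one. Lgals4 led with 873 ± 335 CPM per kilobase (mean ± SD over the 4 parental lines). Muc13 followed with 285 ± 235, Krt20 with 223 ± 129 and Cdh17 with 184 ± 77.9 CPM per kilobase. Gpa33 had 91.5 ± 50.3, Vil1 73.7 ± 36.8, Cdx2 56.7 ± 9.03 and Isx 53.8 ± 16.9 CPM per kilobase. Fabp2 came last with 2.20 ± 1.36 CPM per kilobase. The ranges over the lines overlapped for every pair of neighbours in this order except Isx and Fabp2. Lgals4 was above Muc13, and Cdh17 above Gpa33, in all 4 lines, whereas Krt20 exceeded Cdh17 in 1 line.

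**Figure D1:**
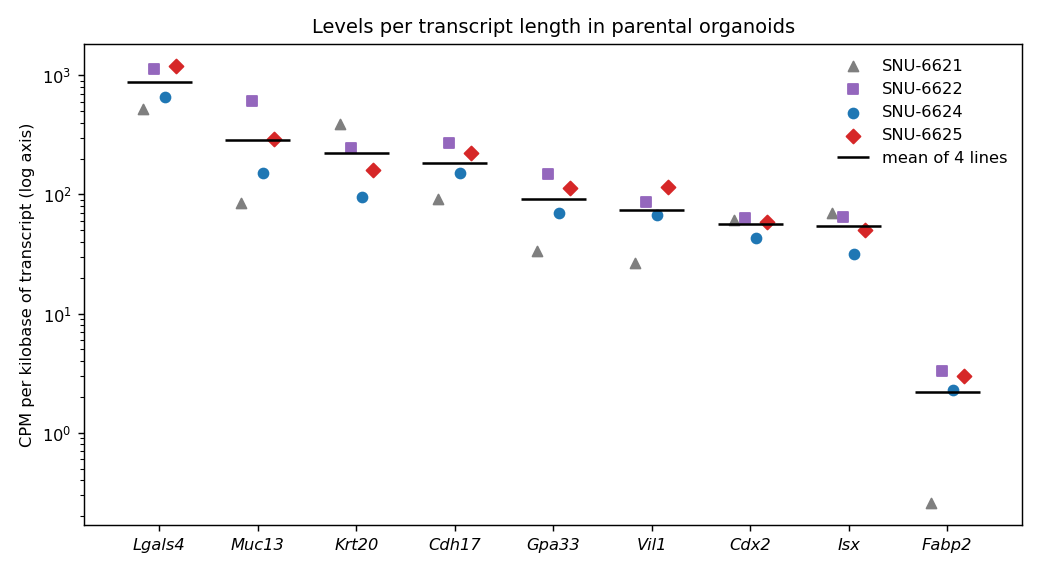
CPM per kilobase of transcript (log axis) of 9 of the genes in the 4 parental libraries, 1 point per line, with the mean of the lines as a bar. Lgals4 lies highest at a mean of 873 and Fabp2 lowest at 2.20 CPM per kilobase, and SNU-6621 is the lowest line for 6 of the 9 genes.

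Other intestinal genes were taken from lists that were also written with earlier results known. In the parental lines, 5 of 13 gut transcription factor genes reached 10 CPM in every line, led by Klf4 at 444 ± 27.0, Elf3 at 290.5 ± 83.7 and Klf5 at 129.7 ± 16.9 CPM (SD, n = 4). Of 11 brush border genes 6 did, led by the membrane-cytoskeleton linker Ezr at 995 ± 136 CPM, the microvillus myosin Myo7b at 366 ± 115 CPM and Eps8 at 333 ± 131 CPM. Of 15 measured surface and adhesion genes 11 did, led by Krt8, Krt18 and Ceacam1, which are shared with many other epithelia.

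By contrast, 0 of 32 genes of mature absorptive cells reached 10 CPM in every parental line. The highest in the mean were the carbonic anhydrase gene Car1 at 53.7 ± 53.5, the guanylin receptor gene Gucy2c at 22.3 ± 17.8 and the peptidase gene Dpp4 at 16.4 ± 14.1 CPM (SD, n = 4), each uneven between lines. Mttp of the same list was more even and came close, with 17.0 CPM in SNU-6621, 16.5 in SNU-6622, 15.2 in SNU-6624 and 9.14 in SNU-6625. Of 12 goblet cell genes 1 did, Fcgbp, which encodes a mucus protein, at 577 ± 345 CPM. None of 8 Paneth cell, 11 enteroendocrine or 6 tuft cell genes reached that level in every line. The summed CPM was 0.428 to 0.784 for the enteroendocrine and 1.51 to 2.54 for the tuft list in parental libraries. Of 7 gut stem cell genes 2 reached it, Rnf43 at 87.9 ± 36.6 and Lrig1 at 73.9 ± 21.9 CPM, and the stem cell marker gene Olfm4 had 22 counts in parental SNU-6621 and 0 in the other 7 libraries.

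The labelled tissue was checked against markers of the liver. Of 12 hepatocyte genes, 0 reached 10 CPM in every parental line and 5 had 0 counts in all 8 libraries, among them the albumin gene Alb. The summed level of this list was 1.19 to 1.64 CPM in resistant, 0.407 to 1.21 in lenvatinib and 0.712 to 48.1 CPM in parental libraries, the highest being SNU-6621 with 2369 counts of Cyp2e1. Of 10 bile duct genes, 5 reached 10 CPM in every parental line, with the duct keratin genes Krt19 at 2990 ± 174 and Krt7 at 2381 ± 266 CPM. Apart from Cyp2e1 in SNU-6621, hepatocyte markers were thus near 0 in these cultures, while duct keratins were high. The marker lists of fibroblasts and endothelium summed to at most 1.1 and 1.55 CPM in any library, with the defining genes Col3a1 and Kdr at 0 counts in all 8. The leukocyte list summed to 34.0 to 106 CPM in parental libraries, nearly all of it Cd14, with Ptprc at 0 counts in all 8.

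The second question is how treated organoids differ from untreated ones. After lenvatinib there was less transcript of Cdh17, Vil1, Muc13 and Krt20 than in the parental organoids of the same lines, and the log2 fold changes of these 4 were -4.52 to -2.84. Cdx2, Isx, Lgals4 and Fabp2 had lower values in both treated libraries without passing the test, Gpa33 had overlapping values, and Muc2 had higher ones. The test was edgeR's quasi-likelihood test on the 6 libraries of SNU-6624 and SNU-6625, adjusted over all 17038 genes tested with a threshold of 0.05. It called 4 of the 10 genes down, against 4.08% of all genes called down, and 0 up, against 1.7% of all genes. The summed level of the 10 genes was 335 and 554 CPM in lenvatinib SNU-6624 and SNU-6625, against 2583 and 4444 CPM in the parental libraries of these lines. Fewer cells of an epithelial type and less RNA per cell cannot be told apart in these bulk libraries. With 1 library per line and group, the p-values reflect only how these libraries scatter. Mki67 also differed between the groups, with 84 and 105 counts in lenvatinib and 12767 and 11437 in parental libraries of these lines, and its part in the result was not tested.

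Cdh17 had 17.1 and 46.8 CPM in lenvatinib SNU-6624 and SNU-6625, against 526 and 776 CPM in the parental libraries. Both treated libraries lay far below both parental ones, and the log2 fold change was -4.52 (SE 0.46, adjusted p = 0.0356 by edgeR). Muc13 had 16.1 and 77.9 CPM in lenvatinib organoids, against 447 and 867 CPM in parental organoids, a log2 fold change of -4.09 (SE 0.65, adjusted p = 0.0467 by edgeR). Its treated libraries differed from each other by 4.83 times, with SNU-6625 the higher. Muc13 was no longer called without line as a term (adjusted p = 0.0563 by edgeR), with all 8 libraries (0.0515) or with scaling on library size alone (0.0514).

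Vil1, the villin gene, had 11.6 and 22.2 CPM in lenvatinib organoids, against 211 and 358 CPM in parental organoids. Its log2 fold change was -4.17 (SE 0.54, adjusted p = 0.0401 by edgeR), and the ratios within the lines, -4.23 in SNU-6624 and -4.12 in SNU-6625, were close. With no filter on low counts Vil1 was not called (adjusted p = 0.0549 by edgeR). Exons of Vil1 overlap those of Usp37 on the opposite strand, which had 3932 and 3024 counts in lenvatinib and 2015 and 1261 in parental libraries. If strand was not used in counting, reads in the overlap could be given to either gene. Exons of Muc13 overlap those of Gm15657 on the opposite strand, a gene with no row in the files. Krt20 had 27.0 and 45.2 CPM in lenvatinib organoids, against 183 and 306 CPM in parental organoids, a log2 fold change of -2.84 (SE 0.22, adjusted p = 0.0305 by edgeR). The ratios within the lines, -2.82 and -2.87, were nearly equal.

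Lgals4 had 41.2 and 78.7 CPM in lenvatinib organoids, against 901 and 1657 CPM in parental organoids. The groups did not overlap and the ratio was -4.51 in each line, yet the gene was not called, with a log2 fold change of -4.51 (SE 0.95, adjusted p = 0.0663 by edgeR). Lgals4 also had a wide gap between the resistant libraries, which enter the shared estimate of the spread. It was called by limma-voom (adjusted p = 0.0409), by DESeq2 (6.89e-10) and by edgeR with the 4 compared libraries (5.41e-05). edgeR also called it with at least 1 CPM in every library (0.0452), but not without line as a term (0.0501) or with no filter on low counts (0.0936). Isx had 2.76 and 7.43 CPM in lenvatinib organoids, against 56.8 and 89.4 CPM in parental organoids, with -3.93 (SE 0.997, adjusted p = 0.0848 by edgeR, not called). Fabp2 had 23 and 29 counts in lenvatinib organoids, against 134 and 141 counts in parental organoids, with -2.54 (SE 1.25, adjusted p = 0.238 by edgeR).

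Cdx2 had 43.5 and 38.9 CPM in lenvatinib organoids, against 98.0 and 134 CPM in parental organoids. Its log2 fold change of -1.58 (SE 0.29) was not called (adjusted p = 0.0546 by edgeR), and both treated libraries were below both parental ones. It was called without line as a term (adjusted p = 0.0434 by edgeR), and with at least 1 CPM in every library (0.0341). The 4 compared libraries alone (0.00127 by edgeR), DESeq2 (1.98e-05) and limma-voom (0.0409) also gave a call. edgeR did not call it with all 8 libraries (0.0596), RLE size factors (0.0544), library size alone (0.0651) or no filter on low counts (0.0747). On the log2 scale the change of Cdx2 is smaller than those of Isx, Cdh17, Vil1, Muc13 and Lgals4, a difference between genes that was not tested. Gpa33 had 169 and 227 CPM in lenvatinib organoids, against 156 and 252 CPM in parental organoids. The ranges overlapped, the ratio was 0.06 in SNU-6624 and -0.26 in SNU-6625, and the log2 fold change was -0.10 (SE 0.19, adjusted p = 0.746 by edgeR). Muc2 had 353 and 525 counts in lenvatinib organoids, against 92 and 79 counts in parental organoids. Its log2 fold change was 2.19 (SE 0.50, adjusted p = 0.0739 by edgeR, not called), and both treated libraries were above both parental ones of their lines.

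Taking CPM alone, 8 of the 10 genes had both lenvatinib libraries below both parental libraries of the 2 lines, against 32.4% of all genes tested. The median log2 fold change of the 10 genes was -3.39, against -0.0089 for all genes tested. In the fit to all 6 libraries, 8 of the 10 genes and 5421 of all 17038 had an unadjusted p under 0.05 by edgeR. That number over all genes was not counted for the fits below. The number of calls changed with the libraries left out. With 1 lenvatinib or parental library left out its group holds 1, so an absence of calls cannot show reliance on that library. The log2 fold changes were then -5.20 to -4.00 for Cdh17 and -4.72 to -3.73 for Vil1. They were -5.17 to -3.34 for Muc13 and -2.98 to -2.69 for Krt20. Without lenvatinib SNU-6624, lenvatinib SNU-6625, parental SNU-6624 or parental SNU-6625 edgeR called 0 of the 10 genes (7, 8, 8 and 6 with an unadjusted p under 0.05), and 0 of all genes. With either resistant library left out it called 9, 8 down and Muc2 up, with Gpa33 not called, but calls over all genes also went up, to 7798 when resistant SNU-6624 was absent and 7769 when resistant SNU-6625 was, against 985 with all 6 libraries. Using the 4 libraries of the compared groups alone it also called 9, among 7942 of all genes, and DESeq2 called 8, of which 7 down and Muc2 up, among 3648 of all genes. limma-voom called 6, all of them down, among 1697 of all genes.

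**Figure D2:**
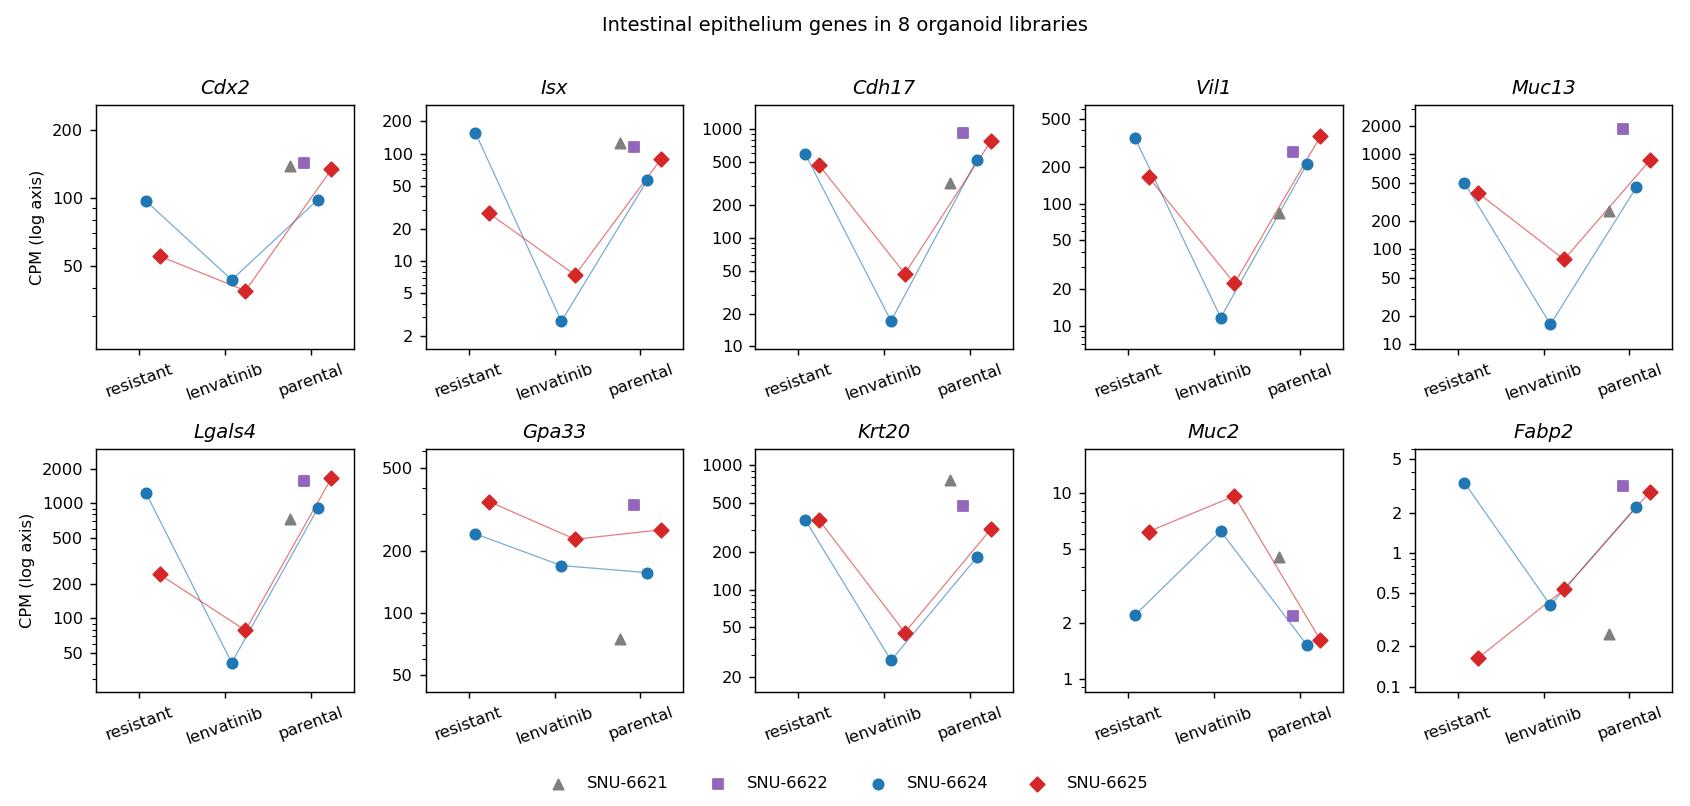
CPM (log axis, own scale per gene) of the 10 genes in the resistant, lenvatinib and parental libraries, with 1 point per library and thin lines joining the libraries of SNU-6624 and of SNU-6625. In 8 genes both lenvatinib points lie below both parental points of their lines, Gpa33 stays between 156 and 344 CPM in these lines, and Muc2 is highest after lenvatinib.

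Among all genes tested 4.08% were called down after lenvatinib and 1.7% up, the shares to set beside each list that follows. The transcription factor list had 2 of 12 tested members called down after lenvatinib and 0 up. These were Hnf4a with a log2 fold change of -3.97 (SE 0.21, adjusted p = 0.0275 by edgeR) and Maf with -1.99 (SE 0.29, adjusted p = 0.0437 by edgeR). Hnf4a, a factor gene of gut and liver epithelium, had 316 and 594 counts in lenvatinib organoids, against 5497 and 7296 counts in parental organoids. Hnf4g, the intestinal relative of Hnf4a, had -3.65 (SE 0.66, adjusted p = 0.0545 by edgeR, not called), while Gata6 had 0.04 (SE 0.22) and Klf5 -0.02 (SE 0.33), neither called. The median of the list was -0.98.

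Of 11 brush border genes 2 were called down, Myo7b with -2.32 (SE 0.34) and the actin bundling gene Pls1 with -1.54 (SE 0.22), and 0 up. Ezr of this list had -0.48 (SE 0.41) and Plb1 1.57 (SE 0.73), neither called. Plb1 had 48 and 96 counts in lenvatinib organoids, against 35 and 12 counts in parental organoids. Of 15 surface genes 3 were called down, the membrane mucin gene Muc4 with -5.85 (SE 0.28), the tetraspanin gene Tspan8 with -3.12 (SE 0.22) and Lgals3 with -1.29 (SE 0.21), and 0 up. The goblet list had 2 of 6 tested members called down, Agr2 with -7.25 (SE 0.83) and Fcgbp with -3.67 (SE 0.58). Agr2 had 0 and 17 counts in lenvatinib organoids, against 109 and 1634 counts in parental organoids. Tff3 of this list went the other way, with 2.17 (SE 1.59, not called). It had 17 and 32 counts in lenvatinib organoids, against 0 and 17 counts in parental organoids. Spdef had -0.28 (SE 0.86, not called). Of 4 tested stem cell genes 2 were called down, Lgr5 with -5.48 (SE 0.51) and Axin2 with -1.46 (SE 0.18). The absorptive list had 0 of 18 tested members called, with a median of -3.66. Against that median, Mttp of this list had 1.81 (SE 0.34, adjusted p = 0.0565 by edgeR, not called). It had 2631 and 2339 counts in lenvatinib organoids, against 920 and 448 counts in parental organoids. The only member called in the Paneth list of 3 tested genes was Reg3g, with -5.37 (SE 0.53) and 0 and 34 counts in lenvatinib organoids, against 7 and 1173 counts in parental organoids. These values are log2 fold changes, and the genes called had an adjusted p of 0.0275 to 0.0467 by edgeR.

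Markers of duct epithelium moved along with the intestinal genes. The bile duct list summed to 1924 and 2377 CPM in lenvatinib libraries, against 6471 to 7538 CPM in parental libraries, and 2 of its 10 members were called down, Krt19 with -3.25 (SE 0.38) and Spp1 with -3.10 (SE 0.51). Its part in the change of the intestinal genes was not tested.

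The third question is how resistant cultures differ from parental ones. The 2 lines differed: in SNU-6624 9 of the 10 genes were higher in the resistant culture than in the parental one, and in SNU-6625 7 of 10 were lower. These shares compare with 49.6% of all tested genes higher in SNU-6624 and 51.3% lower in SNU-6625. The median log2 ratio of the 10 genes was 0.54 in SNU-6624 and -0.93 in SNU-6625, against 0.0052 and -0.02 for all genes. The summed level was 3550 and 2067 CPM in resistant SNU-6624 and SNU-6625, against 2583 and 4444 CPM in their parental libraries. edgeR called 0 of the 10 genes and 0 of 17038, which is 0% of all genes, with 3 of the 10 and 2715 of all under an unadjusted p of 0.05. DESeq2 called 1 of the 10, Krt20, and 1104 of all genes, and limma-voom called 0.

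Lgals4 had 1238 and 241 CPM in resistant SNU-6624 and SNU-6625, against 901 and 1657 CPM in parental organoids. The log2 ratio was 0.43 in SNU-6624 and -2.58 in SNU-6625, so the fitted value of -0.80 (SE 0.89, adjusted p = 0.659 by edgeR) describes neither line. Isx had 157 and 27.8 CPM in resistant organoids, against 56.8 and 89.4 CPM in parental organoids, its ratios being 1.44 and -1.49. Fabp2 had 169 and 10 counts in resistant organoids, against 134 and 141 counts in parental organoids, with ratios of 0.57 and -3.94. In each of these 3 genes resistant SNU-6625 was the lowest of the 4 libraries.

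Vil1 had 350.0 and 166 CPM in resistant organoids, against 211 and 358 CPM in parental organoids, the log2 ratio being 0.71 for SNU-6624 and -0.91 for SNU-6625. Cdh17 had 596 and 472 CPM in resistant organoids, against 526 and 776 CPM in parental organoids, with ratios of 0.16 and -0.52. Muc13 had 499 and 389 CPM in resistant organoids, against 447 and 867 CPM in parental organoids, with ratios of 0.13 and -0.96. The fitted changes of these 3 genes lay between -0.30 and -0.02 on the log2 scale, with SE of 0.40 to 0.58. Cdx2 had 96.9 and 55.4 CPM in resistant organoids, against 98.0 and 134 CPM in parental organoids, a log2 fold change of -0.57 (SE 0.28, adjusted p = 0.383 by edgeR) that came from SNU-6625, with ratios of -0.04 and -1.07.

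Krt20, Gpa33 and Muc2 had higher values in both resistant cultures than in their own parental line. Krt20 had 367 and 366 CPM in resistant organoids, against 183 and 306 CPM in parental organoids, a log2 fold change of 0.72 (SE 0.21, adjusted p = 0.265 by edgeR). Gpa33 had 240.5 and 344 CPM in resistant organoids, against 156 and 252 CPM in parental organoids, with 0.62 (SE 0.19, adjusted p = 0.27 by edgeR). Muc2 had 111 and 379 counts in resistant organoids, against 92 and 79 counts in parental organoids, with 1.36 (SE 0.50, adjusted p = 0.308 by edgeR). These 3 are the genes with an unadjusted p under 0.05. With resistant SNU-6624 left out edgeR called 8 of the 10, 5 down and 3 up, among 5819 of all genes. With resistant SNU-6625 left out it called 2, Isx and Krt20, both up, among 580 of all genes. It called 0 without any of the other 4 libraries.

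The other intestinal lists had 0 members called in this comparison. Hnf4a had 5526 and 7367 counts in resistant organoids, against 5497 and 7296 counts in parental organoids. The medians were 0.39 for gut transcription factors, -0.43 for brush border, 0.46 for surface genes and -1.32 for absorptive genes, against -0.0105 for all genes tested. They were -2.51 for 6 tested goblet, -6.81 for 3 Paneth, -0.11 for 4 stem cell, 0.52 for 3 tuft and 1.69 for 1 enteroendocrine gene. Agr2 had 0 and 25 counts in resistant organoids, against 109 and 1634 counts in parental organoids, with -6.60 (SE 0.79). Reg3g had 0 and 11 counts, against 7 and 1173 counts, with -6.81 (SE 0.59). Both had an adjusted p of 0.247 by edgeR, while Lgr5 had 0.15 (SE 0.42). The bile duct list summed to 11527 and 8438 CPM in resistant SNU-6624 and SNU-6625, against 6471 to 7538 CPM in parental libraries.

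The fourth question is how resistant cultures differ from lenvatinib-treated ones. This comparison shares the lenvatinib libraries with the second and the resistant libraries with the third, so its values are not separate evidence. The treatment label of the resistant cultures is control, and whether they were in drug at harvest is not known. Resistance and a difference in drug exposure at harvest therefore cannot be told apart. Resistant organoids had more Cdh17, Vil1, Muc13 and Krt20 transcript than treated organoids, and the log2 fold changes of these 4 were 3.57 to 4.39. edgeR called these 4 of the 10 genes up, against 4.14% of all genes, and 0 down, against 2.08%. In CPM, 8 of the 10 genes had both resistant libraries above both lenvatinib libraries, against 22.3% of all genes tested. The median log2 fold change of the 10 genes was 3.64, against 0.02 for all genes.

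Krt20 rose by 3.57 on the log2 scale (SE 0.23, adjusted p = 0.0174 by edgeR), with 367 and 366 CPM in resistant organoids, against 27.0 and 45.2 CPM in lenvatinib organoids. Cdh17 rose by 4.39 on the log2 scale (SE 0.46, adjusted p = 0.0312 by edgeR), with 596 and 472 CPM in resistant organoids, against 17.1 and 46.8 CPM in lenvatinib organoids. Vil1 rose by 4.15 (SE 0.55, adjusted p = 0.038 by edgeR) and Muc13 by 3.79 (SE 0.66, adjusted p = 0.0495 by edgeR), on the same scale. Muc13 was not called without line as a term (adjusted p = 0.0634 by edgeR), with all 8 libraries (0.055), with the 4 compared libraries (0.0718), with RLE size factors (0.0501) or with library size alone (0.055), and Vil1 not with no filter (0.0525). For all 4 the log2 ratio was larger in SNU-6624 than in SNU-6625, as with Cdh17 at 5.15 and 3.64. That ordering was not tested.

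Isx and Lgals4 had wide differences that were not called. Isx had 157 and 27.8 CPM in resistant organoids, against 2.76 and 7.43 CPM in lenvatinib organoids, with a log2 fold change of 4.27 (SE 1.08, adjusted p = 0.0838 by edgeR). Lgals4 had 1238 and 241 CPM in resistant organoids, against 41.2 and 78.7 CPM in lenvatinib organoids, with 3.71 (SE 0.96, adjusted p = 0.0878 by edgeR). Cdx2 had 1.02 (SE 0.28, adjusted p = 0.097 by edgeR) and Gpa33 0.72 (SE 0.19, adjusted p = 0.0877 by edgeR), both higher in resistant organoids and not called. Muc2 had 111 and 379 counts in resistant organoids, against 353 and 525 counts in lenvatinib organoids, with -0.83 (SE 0.49, adjusted p = 0.321 by edgeR). Fabp2 had 169 and 10 counts in resistant organoids, against 23 and 29 counts in lenvatinib organoids, so its libraries overlapped.

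In the fit to all 6 libraries, 8 of the 10 genes and 5173 of all 17038 had an unadjusted p under 0.05 by edgeR. That number over all genes was not counted for the fits below. Here too the number of calls changed with the libraries left out. With 1 library left in a group, an absence of calls cannot show reliance on the library left out. edgeR called 0 of the 10 without lenvatinib SNU-6624 or lenvatinib SNU-6625 (5 and 6 with an unadjusted p under 0.05), and 1, Krt20, without parental SNU-6624 or parental SNU-6625. It called 7 when resistant SNU-6624 was left out, among 6286 of all genes, and 10 when resistant SNU-6625 was, among 5867. DESeq2 called 8, among 3552 of all genes, against 1061 called by edgeR with all 6 libraries. Of the other lists, 2 of 12 transcription factor genes were called up, Hnf4a with a log2 fold change of 4.05 (SE 0.21) and Klf4 with 1.82 (SE 0.29). The share of all genes tested called up was 4.14%. Of 15 surface genes 6 were called up, led by Muc4 with 6.81 (SE 0.29), Tspan8 with 3.43 (SE 0.22) and Lgals3 with 2.51 (SE 0.22). In the absorptive list 1 of 18 was called up, the water channel gene Aqp8, with 80 and 108 counts in resistant and 0 and 0 in lenvatinib libraries. Of 4 tested stem cell genes 2 were called up, Lgr5 with 5.63 (SE 0.51) and Axin2 with 1.36 (SE 0.18), and of 11 brush border genes 0 were. The bile duct list had 4 of 10 called up, led by Spp1 with 5.48 (SE 0.56), and summed to 11527 and 8438 CPM in resistant SNU-6624 and SNU-6625, against 1924 and 2377 CPM in the lenvatinib libraries. The leukocyte list, nearly all Cd14 and with Ptprc at 0, summed to 51.1 and 112 CPM in resistant libraries, against 14.1 and 19.9 CPM in lenvatinib libraries, and 2 of its 3 tested members were called up. The part of either list in the result was not tested.

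**Figure D3:**
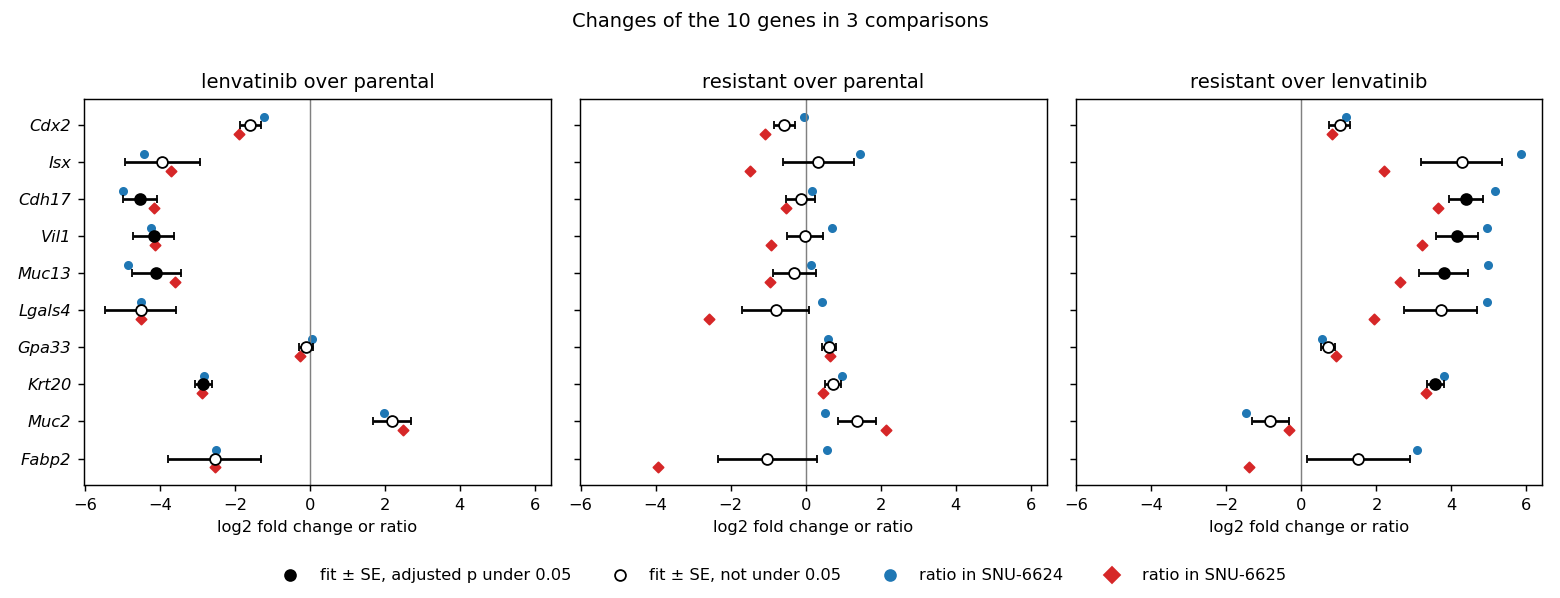
Log2 fold change of each gene in 3 comparisons, with the fitted value ± SE as a circle (filled where the edgeR adjusted p is under 0.05) and the ratios within SNU-6624 and SNU-6625 on the TMM-scaled CPM as coloured points. In resistant over parental the ratios of the lines lie on opposite sides of 0 for 6 genes, led by Fabp2 at 0.57 and -3.94 and Lgals4 at 0.43 and -2.58. The share of all tested genes with opposite directions was not counted.

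Genes with the most similar pattern over the 8 libraries were sought among 10906 genes with at least 10 CPM in 1 or more libraries, by Pearson correlation of log2(CPM + 1). This measure is a description, since the libraries fall into treated and untreated groups. The mean profile of the 10 genes was matched best by Mall, Entpd8, Npnt, Tspan1 and S100a14, with correlations of 0.996 to 0.984. Mall, a membrane protein gene of epithelia, had 7091 and 6272 counts in resistant, 1509 and 2184 in lenvatinib and 7120 and 7983 in parental SNU-6624 and SNU-6625. Cdx2 alone was matched best by the sugar transporter gene Slc5a9, Clrn3, the sulfotransferase gene Gal3st1, 4930447F24Rik and Zfp935, with correlations of 0.981 to 0.9745. Slc5a9 had 318 and 56 counts in resistant, 26 and 32 in lenvatinib and 462 and 792 in parental SNU-6624 and SNU-6625. Its lower value in resistant SNU-6625 than in resistant SNU-6624, as in Cdx2, is part of the likeness by which it was chosen.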

How the data were processed

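Poly(A) RNA was turned into libraries with a strand-preserving kit, per the labels' protocols. The deposited files hold whole-number read counts per gene. The submitters' processing notes name build mm10 and the tools HISAT2 2.1.0, StringTie 2.1.3b, Bowtie2 2.3.4.1, Trimmomatic 0.38 and FastQC 0.11.7. How reads were counted, and whether by strand, is not given in the sources used here. Genes, lists and tests were chosen with earlier results of these data known.

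From the counts, CPM on total counts was computed, and edgeR 4.0.16 (R 4.3.3) was fitted across all genes in the 6 libraries of SNU-6624 and SNU-6625: group and line as terms, TMM scaling, filterByExpr with a minimum count of 10 (17038 genes kept, all 10 members among them), quasi-likelihood F test, Benjamini-Hochberg adjustment. Each SE was derived from the log2 fold change and the F statistic. Residual degrees of freedom were 2, prior 2.53. Line pairs the libraries because each line enters every group, and deviations from group means correlated at 0.504 (lenvatinib and parental), 0.288 (resistant and parental) and 0.29 (resistant and lenvatinib). Totals of 49011663 to 61032387 counts limit precision most for Fabp2 and Muc2. Ratios within a line used TMM-scaled CPM. Transcript lengths came from GENCODE M21 by RefSeq accession, the longest taken. Positions and promoters are from RefSeq, GRCm38.p6. DESeq2 1.42.0, limma-voom (limma 3.58.1), other scaling, filters and sets of libraries were alternatives. The rule for named genes took all 10 members, per list up to 3 called genes with the largest change and the 3 highest in parental CPM (the text gives part of these), and the 5 nearest patterns. Hnf4g, Gata6, Klf5, Cdx1, Mttp, Olfm4, Mki67, Alb and Cyp2e1 were named beyond it, after their values were seen. So were Col3a1, Kdr, Ptprc, Usp37, Atp4a, Cldn18, Tff3, Spdef and Plb1. One gene of the transcription factor list and a motif are not reported here, and the list was counted without that gene.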

Additional observations from a re-analysis of the deposited data

Results flagged for a closer look

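The resistant cultures of the 2 lines moved in opposite directions from their parental libraries in 6 of the 10 genes. The share of all tested genes with opposite directions was not counted, so this number describes the 10 genes alone. Of all tested genes, 49.6% were higher in resistant than in parental SNU-6624, and 48.2% in SNU-6625. The difference between the lines, as the log2 ratio in SNU-6625 minus that in SNU-6624, was -4.50 for Fabp2 (-3.94 in SNU-6625 and 0.57 in SNU-6624), -3.02 for Lgals4 (-2.58 and 0.43) and -2.93 for Isx (-1.49 and 1.44). It was -1.62 for Vil1 (-0.91 and 0.71), -1.09 for Muc13 (-0.96 and 0.13) and -0.68 for Cdh17 (-0.52 and 0.16). With 1 library per line and group these differences were not tested. Resistant SNU-6625 had 17 counts of Mki67 and resistant SNU-6624 had 1970, and the part of this in the differences was not tested.

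For resistant against lenvatinib libraries Fabp2 also had opposite directions, with a difference of -4.46 (-1.39 in SNU-6625 and 3.07 in SNU-6624), resting on 10 and 169 counts in the resistant and 29 and 23 in the lenvatinib libraries of these lines. For lenvatinib against parental libraries Gpa33 had a difference of -0.32 (-0.26 in SNU-6625 and 0.06 in SNU-6624). Neither was tested. No parental library was far enough from the other 3 in any of the 10 genes to exceed Dixon's 95% critical value for 4 samples.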

How the results depend on the processing

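For lenvatinib against parental, the number of the 10 genes called by edgeR, 4 (985 of all genes), was 9 with the 4 compared libraries alone (7942), 8 with DESeq2 (3648), 2 with no filter on low counts (174), 7 with at least 1 CPM in every library (1427) and 0 to 9 when a library was left out (0 to 7798). For resistant against parental it was 0, and 1 with DESeq2 (1104 of all genes) and 0 to 8 when a library was left out (0 to 5819). For resistant against lenvatinib it was 4 (1061), and 8 with DESeq2 (3552), 2 with no filter (324) and 0 to 10 when a library was left out (0 to 6286). Calls over all genes thus moved with those of the 10 genes. In a fit that leaves out a library, the lone sample of its group is assumed to vary like the others. The fit with no replicate block (line left out as a term) called 4, 0 and 3 of the 10 genes in these comparisons. In it, Cdx2 after lenvatinib was called (-1.57, edgeR adjusted p = 0.0434) and Muc13 was not (-3.91, edgeR adjusted p = 0.0563). The number of genes with at least 10 CPM in every parental line, 8, was 8 in each of the 7 alternatives run.

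The sign was not stable for genes near 0. Leaving out libraries, the log2 fold change of Gpa33 after lenvatinib lay between -0.27 and 0.047. For resistant against parental it lay between -1.65 and 1.58 for Isx, which was also -0.023 with the 4 compared libraries and -0.037 with limma-voom. It lay between -0.74 and 0.34 for Cdh17, -0.94 and 0.73 for Vil1, -1.30 and 0.41 for Muc13, -2.59 and 0.43 for Lgals4 and -3.91 and 0.56 for Fabp2. For resistant against lenvatinib Fabp2 lay between -1.38 and 3.07. The 4 genes called after lenvatinib kept a negative value in every alternative run. Depth limits Fabp2 most, with 10 to 185 counts.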

Other observations

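Genes of other foregut organs were mostly near 0. Of 12 stomach genes 9 had at most 3 counts in every library, and 6 had 0 in all 8. Of the other 3, Atp4a, of the acid pump, had 2 to 84 counts and Cldn18 had 11 counts in resistant SNU-6625 and 0 in the other 7 libraries. Muc5ac, the main secreted mucin of the stomach surface, was the 1 stomach gene with at least 10 CPM in every parental line. It had 79.4 CPM in SNU-6621, 58.3 in SNU-6622, 191 in SNU-6624 and 74.4 in SNU-6625. Muc5ac had 7001 and 36 counts in resistant SNU-6624 and SNU-6625, 312 and 42 in lenvatinib and 11519 and 3648 in parental libraries of these lines. Its log2 fold change was -6.36 after lenvatinib (SE 1.76, edgeR adjusted p = 0.0986) and -2.87 in resistant against parental organoids (SE 1.71, edgeR adjusted p = 0.441), neither called. Muc5ac was lower in resistant SNU-6625 than in resistant SNU-6624, as were Lgals4, Isx and Fabp2. Of 8 pancreas genes 5 had 0 counts in every library, and the factor gene Pdx1 had 52 counts in parental SNU-6621 and 0 in the other 7 libraries.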
